A study of Mus musculus with 5 samples.

Results

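Sds encodes serine dehydratase, an enzyme of the hepatocyte cytosol, and its UMI counts were followed here in mouse hepatocytes from the fed state to 30 h without food. It is 1 gene of a panel of 64. It was chosen by its measured values in these same libraries (its level by time, its spread between barcodes, its position and its coupling with other genes), so those values are given as descriptions, with no test.

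The hepatocytes came from wild-type male C57BL/6J mice on chow, and hepatocytes were the one cell type the labels name. All mice had been trained for 3 days to 16 h without food and 8 h with it. On the day they were given food and water with 20% sucrose. The fed library (0 h) was taken after 4 h of feeding, at clock hour 13, and the fasted libraries after 8, 16, 24 and 30 h without either, at clock hours 21, 5, 13 and 19. Each time point had 1 library, and the sources used here do not say how many mice it came from. No difference between time points therefore has a replicate check, and intervals below cover counting error only. Hours of fasting and clock hour cannot be told apart. The fed and 24 h libraries have the same clock hour.

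Serine dehydratase uses pyridoxal phosphate to split serine into pyruvate and ammonia, and acts on threonine in the same way. The pyruvate can enter gluconeogenesis, by which the fasting liver makes glucose from amino acids, lactate and glycerol. The gene is known to be raised by glucagon, glucocorticoids and protein-rich diets. Along the liver lobule, blood flows from the portal tract to the central vein, and amino acid breakdown and gluconeogenesis are known to be strongest on the portal side, where Sds is a known marker.

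Sds (ENSMUSG00000029597) lies on the plus strand of chromosome 5 at 120476526 to 120483932 (GRCm38), with 9 exons in its principal transcript. Sdsl, a related gene, lies 3715 bases away on the minus strand and was not on the panel. No exon of another gene overlaps an Sds exon on the same strand. Exons of 2 genes on the opposite strand, Gm15690 and Plbd2, do overlap. The sources used here do not say whether counting used strand. Whether any UMIs from these 2 genes were counted as Sds was not tested.

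The libraries held 47473 barcodes in all. Panel UMIs per library ran from 3979629 at 8 h to 11288725 at 30 h, and the 8 h library stood apart as the shallow one, with a median of 219 UMIs per barcode against 651 to 1202.5 in the others. Alb, the hepatocyte marker albumin, took 69.4% to 71.8% of panel UMIs, so a level per panel UMI is largely a level relative to Alb. Pairs of libraries shared 11 to 34 barcode sequences. The panel held 6 of 16 listed genes of other liver cells, and their summed level was 29.7 to 76.2 UMIs per 1000000 panel UMIs in 4 libraries and 220 at 8 h, with none of the 6 at 0 in any library.

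Per panel UMI, Sds was lowest in the fed library and highest after 30 h, and the course between them was not steady. Levels are given as CPM, UMIs per 1000000 panel UMIs. The fed library had 13182 Sds UMIs, or 1746 CPM (95% interval 1716 to 1776). The level was 4921 CPM (4852 to 4990) at 8 h and 2155 CPM (2118 to 2192) at 16 h. It was 3379 CPM (3344 to 3415) at 24 h and 7506 CPM (7455 to 7557) at 30 h. The libraries thus ranked 30 h, 8 h, 24 h, 16 h and 0 h from high to low, with no overlap between the intervals of neighbours. Among the 64 panel genes Sds had rank 33 in the fed library and 14, 24, 16 and 10 after 8, 16, 24 and 30 h.

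Against the fed library, Sds was 2.82-fold higher at 8 h, a log2 ratio of 1.49 (1.46 to 1.53). In that comparison 16.7% of the 54 genes compared, those with 100 or more UMIs in each library, were over 2-fold higher. The log2 ratio was 0.30 (0.27 to 0.34) at 16 h, where 11.5% of 52 genes were over 2-fold higher and Sds was not among them. At the matched clock hour, 24 h against 0 h, it was 0.95 (0.92 to 0.98), a 1.94-fold difference just inside the 2-fold line that 9.26% of 54 genes passed. With other denominators the 24 h value passed that line, at 1.17 per barcode, 1.07 without Alb and 1.07 with median-of-ratios size factors. A change of denominator shifts every gene alike, and the share of genes past the line was not computed for these. At 30 h the log2 ratio of Sds reached 2.10 (2.08 to 2.13), or 4.30-fold, where 16.7% of 54 genes were over 2-fold higher and Sds ranked 4. The median gene moved little in these comparisons, with log2 ratios of 0.029, -0.090, -0.12 and -0.024 at 8, 16, 24 and 30 h.

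From one library to the next, Sds went up, down and up again. Between 8 h and 16 h it fell by 1.19 on the log2 scale (interval -1.22 to -1.16), and 25% of 52 genes were over 2-fold lower in that step. Between 16 h and 24 h the log2 ratio was 0.65 (0.62 to 0.68), below the 2-fold line that 7.69% of genes passed. The last step, 24 h to 30 h, gave 1.15 (1.13 to 1.17), or 2.22-fold, where 9.26% of 54 genes were over 2-fold higher and Sds ranked 4.

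The position of the 8 h library depended on how it was counted. Per barcode, the means were 1.83 Sds UMIs in the fed library and 1.61, 1.40, 4.12 and 8.39 after 8, 16, 24 and 30 h. On that scale 8 h and 16 h lay below the fed library, with log2 ratios of -0.18 and -0.38, while 24 h and 30 h lay above it under both scales. Barcodes with under 200 panel UMIs made up 47.8% of the 8 h library and at most 5.52% of any other, and they held 32.2% of its Sds UMIs. Their Sds level was 9065 CPM, against 4044 CPM (3975 to 4113) in the deeper 8 h barcodes. Genes of other liver cells also stood higher there, at 966 CPM against 62.7 in the deeper barcodes, and Alb took 66.6% against 72.3%. The part of these shallow barcodes in the 8 h value was not tested. Sds also stood higher in barcodes under 200 UMIs at 0, 24 and 30 h, though over only 52, 4 and 26 of them. There it was 5359, 10000 and 19624 CPM, against 1741, 3379 and 7500.5 in deeper ones. At 16 h, with 522 such barcodes, it was lower, at 1883 CPM against 2158. In barcodes with 200 or more UMIs, a limit added after the data had been seen, the log2 ratio of 8 h to 0 h was 1.22 and that of 16 h to 8 h was -0.91, inside the 2-fold line.

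**Figure D1:**
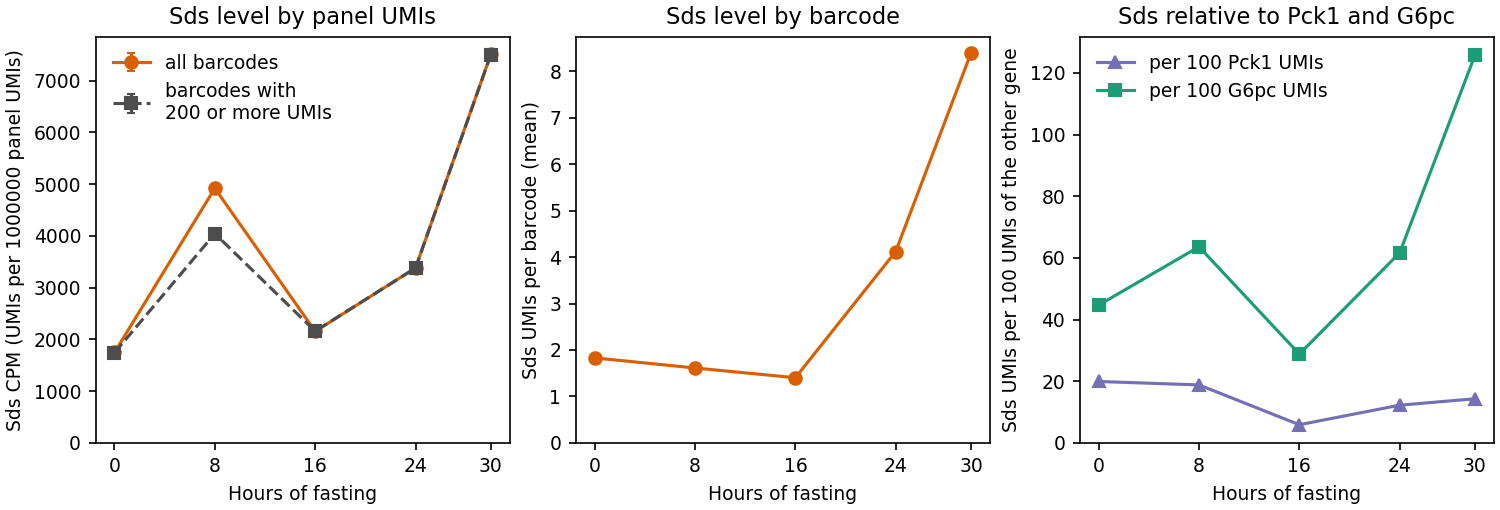
Sds level in each of the 5 libraries against hours of fasting, in CPM and in UMIs per barcode, with bars for exact counting intervals. In CPM 8 h (4921) stands above 0 h (1746) and 16 h (2155), while per barcode 8 h (1.61) lies just below 0 h (1.83), and 30 h is highest on both scales.

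The panel held 3 of 20 listed genes of amino acid catabolism and gluconeogenesis: Sds, Pck1, which makes phosphoenolpyruvate from oxaloacetate, and G6pc, which releases free glucose. Over 2-fold above the fed library were Sds and Pck1 at 8 h, Pck1 alone at 16 h and 24 h (in CPM, with Sds past the line at 24 h under the other denominators above), and Sds and Pck1 at 30 h, and none of the 3 was over 2-fold lower. Pck1 stood at 8772 CPM in the fed library and 26189, 36701, 27659 and 52516 after 8, 16, 24 and 30 h. At 16 h Pck1 was thus higher than at 8 h while Sds was lower. G6pc stood at 3908, 7736, 7480, 5482 and 5969 CPM in the same order and was not highest at 30 h.

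The balance between the 3 genes therefore shifted over time. For every 100 Pck1 UMIs there were 19.9 Sds UMIs at 0 h and 18.8 at 8 h, then 5.87 at 16 h, 12.2 at 24 h and 14.3 at 30 h. This ratio does not use panel depth or Alb as a denominator, and it was lowest at 16 h. It did differ with the depth of the barcodes. In those under 200 UMIs it was 28.3 at 8 h and 5.50 at 16 h. In those with 200 or more it was 19.9, 16.2, 5.88, 12.2 and 14.3 at 0, 8, 16, 24 and 30 h. For every 100 G6pc UMIs there were 44.7 Sds UMIs in the fed library and 63.6, 28.8, 61.6 and 126 after 8, 16, 24 and 30 h, again lowest at 16 h.

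Other metabolic lists gave the setting. Of 16 listed genes of the glucagon, insulin and fasting response, 7 were on the panel. Against the fed library 2, 3, 3 and 4 of the 7 were over 2-fold higher at 8, 16, 24 and 30 h, and 1, 1, 2 and 1 were over 2-fold lower. Over all genes compared the shares were 16.7%, 11.5%, 9.26% and 16.7% higher and 13%, 25%, 22.2% and 25.9% lower. Of 15 fatty acid synthesis genes, 11 were on the panel, and 6, 9, 8 and 9 of them were over 2-fold lower, while 1, the elongase Elovl5, was over 2-fold higher at 8 h. The median log2 ratio of the 11 was -1.08 at 8 h and -3.35 at 30 h, against 1.49 and 2.10 for Sds.

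The genes nearest to Sds over the 5 libraries were named by the root mean square difference between log2 CPM profiles, each centred on its own mean, over 51 genes. The median difference was 0.88. Nearest was Cyp8b1, the sterol 12-alpha-hydroxylase of bile acid synthesis, at 0.28. Its levels were 2543, 4878, 1994, 2863 and 6542 CPM at 0, 8, 16, 24 and 30 h, with the same high points at 8 h and 30 h. Cyp2e1, a pericentral cytochrome P450, was next at 0.47, and Cyp27a1, the sterol 27-hydroxylase, followed at 0.54. Pck1 had rank 6, at 0.63. These are likenesses over 5 single libraries, which share the hour of fasting, the clock hour and depth.

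Within a library, most barcodes carried few Sds UMIs. Medians of unthinned UMIs per barcode were 1 at 0 h, 8 h and 16 h, 3 at 24 h and 8 at 30 h. The highest barcode had 14 UMIs in the fed library and 30, 17, 35 and 74 after 8, 16, 24 and 30 h. To compare libraries at one depth, a random draw of 200 panel UMIs was kept from every barcode (thinning). Too shallow for this were 5807 barcodes of the 8 h library, 522 of the 16 h library and 4 to 52 of the others.

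After thinning, Sds was detected in a larger share of barcodes in the libraries with the higher level. The share with at least 1 UMI was 28.5% (27.5% to 29.6%) in the fed library. It was 51.3%, 32.6%, 46.7% and 72.1% after 8, 16, 24 and 30 h, with an interval of 71.2% to 73.0% at 30 h. Without thinning the shares were 72.1%, 70.2%, 64.1%, 89.4% and 96.4%. The thinned order was that of the CPM levels of the same barcodes. Barcodes with 3 or more UMIs of the 6 genes of other liver cells, which should lack Sds, numbered only 25, 5, 1, 14 and 15, and 11, 3, 1, 9 and 13 of them had an Sds UMI after thinning. At 30 h that was 86.7% (59.5% to 98.3%), with a median depth of 914 UMIs before thinning against 1150 for all barcodes, and at 0 h 44.0% (24.4% to 65.1%), with 277 against 1037.5. These shares are not below those of all barcodes, so the share with a UMI is not read here as a share of cells that express Sds.

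Barcodes of one library differed in Sds by more than counting alone gives. The squared coefficient of variation beyond counting is the variance of the underlying Sds share over its squared mean, with counting at a fixed 200 UMIs removed. It was 0.434 in the fed library and 0.320, 0.411, 0.198 and 0.240 after 8, 16, 24 and 30 h. As a coefficient of variation this is a spread of 0.659 of the mean at 0 h and 0.446 at 24 h. Relative spread was largest in the 2 libraries with the lowest level. Over 5 random thinnings it ranged from 0.384 to 0.455 in the fed library and from 0.347 to 0.470 at 16 h. It ranged from 0.313 to 0.340 at 8 h, 0.157 to 0.218 at 24 h and 0.230 to 0.260 at 30 h. The ranges of the fed and 16 h libraries overlapped, and those of the other pairs did not. They cover the random draw from the same barcodes only, so they do not measure a difference between libraries. The order rests on the thinning depth, since at 100 UMIs the 16 h value was 0.273 and the 8 h value 0.515.

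The departure from alike barcodes was seen at both ends of the distribution. At 30 h 27.9% of barcodes had no Sds UMI after thinning, where 22.9% would have none if all were alike, and 8.55% had 4 or more, against 6.11%. At 0 h 71.5% had none, against 69.7%, and 0.210% had 4 or more, against 0.0515%. The 10% of barcodes with most Sds held 48.6% of its thinned UMIs at 0 h and 30.3% at 30 h. Counted from the least spread of 46 or 47 panel genes, Sds had rank 32 in the fed library and 19, 30, 20 and 24 in the fasted ones, in order of time. Pck1 had 0.661 at 0 h but 0.150 at 30 h, so it was more spread than Sds when fed and less spread at 30 h.

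**Figure D2:**
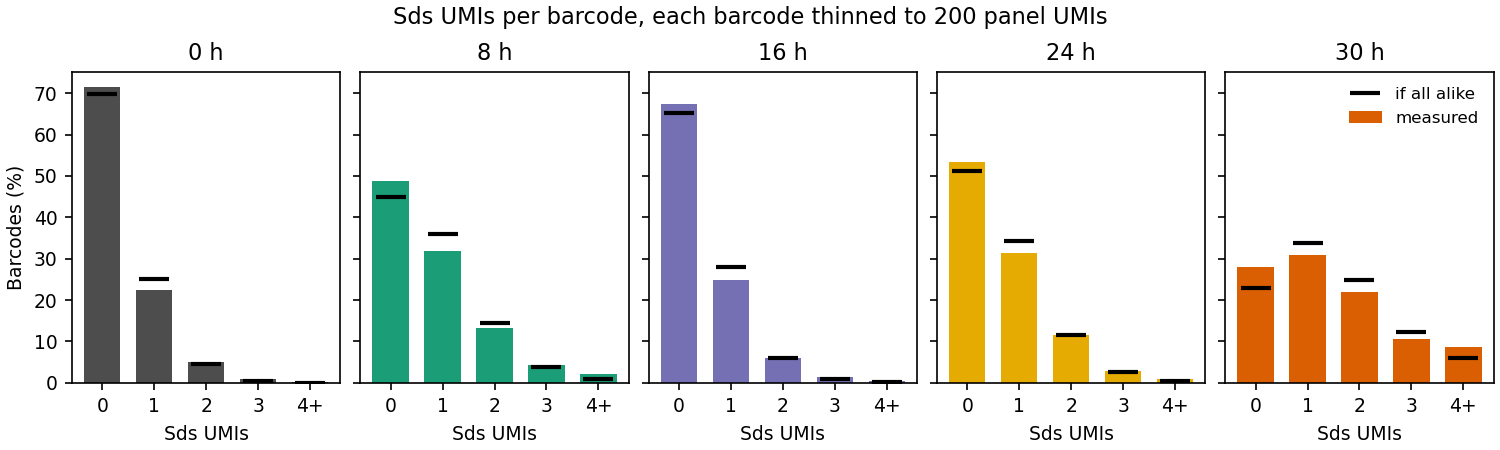
Percent of barcodes by number of Sds UMIs after thinning to 200 panel UMIs, for each library, with the shares that would be seen if all barcodes of a library were alike. The measured shares at 0 UMIs (71.5% at 0 h, 27.9% at 30 h) and at 4 or more UMIs (0.210% and 8.55%) lie above those of alike barcodes.

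Position along the lobule was taken from the ratio of Cyp2e1, highest near the central vein, to Cyp2f2, a periportal cytochrome P450. Barcodes with 200 or more UMIs were ranked by it within each library and divided into 5 equal bins, from bin 1 (periportal end) to bin 5 (pericentral end). Sds took no part in the ranking. In all 5 libraries Sds varied little over the first 3 bins and was lowest in bin 5. The squared coefficient of variation beyond counting also differed by bin, so the value for a whole library does not hold throughout it. At 0 h it ran from 0.203 in bin 4 to 1.20 in bin 5, and at 30 h from 0.072 in bin 3 to 0.826 in bin 5. It was highest in bin 5 at 16 h (0.479) and 24 h (0.415) too, but in bin 4 at 8 h (0.447). With 10 bins in place of 5, the high values did not always lie at the pericentral end itself. At 0, 24 and 30 h they were 1.51, 0.375 and 0.806 in bin 9, against 0.454, 0.315 and 0.150 in bin 10. At 16 h bin 10 was highest, at 0.584.

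In the fed library the 5 bins had 1793, 1930, 1903, 1683 and 1114 CPM of Sds. At 8 h they had 4186, 4330, 4581, 4002 and 2950 CPM, and at 16 h 2381, 2449, 2459, 1908 and 1200 CPM. In CPM the highest bin was bin 2 or bin 3 in each, not the periportal end itself. At 24 h the bins had 3476, 3626, 3645, 3273 and 2481 CPM, and at 30 h 8137, 8339, 8340, 7462 and 3870 CPM. At 30 h the drop from the fourth bin to the last was the largest of any neighbouring bins in these libraries. Without Alb in the denominator, Sds was highest in bin 2 at 0 h and 16 h but in bin 1 at 8, 24 and 30 h. The lead of bin 1 was small, at 30 h 32407 per 1000000 against 32323 in bin 2.

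The log2 ratio of bin 1 to bin 5 was 0.69 (0.59 to 0.79) at 0 h, where 0% of 46 genes were over 2-fold higher in bin 1. It was 0.51 (0.42 to 0.59) at 8 h and 0.99 (0.89 to 1.09) at 16 h, where 2.22% of 45 genes passed that line in each and Sds did not. At 24 h it was 0.49 (0.43 to 0.54), with 2.13% of 47 genes past the line, and at 30 h 1.07 (1.03 to 1.11), or 2.10-fold, with 4.17% of 48. Sds and Hsd17b13, a lipid droplet protein, were the 2 genes past it at 30 h. Sds ranked 3, 3, 2, 3 and 2 among the genes at 0, 8, 16, 24 and 30 h. The median gene was on the other side, between -0.90 and -0.55, with Alb at 725722 CPM in bin 1 and 534604 in bin 5 at 0 h. Depth moved along the bins too, with a median of 1224 UMIs per barcode in bin 1 and 614 in bin 5 at 0 h, and 1334.5 and 812 at 30 h. The part of depth and of Alb in the Sds ratio was not tested beyond the other denominators given with the alternatives, under all of which it kept its sign. Those denominators moved it across the 2-fold line, since without Alb it was 1.45, 1.41, 1.99, 1.55 and 2.07 at 0, 8, 16, 24 and 30 h, past the line in all 5 libraries. Leaving Alb out shifts the ratio of every other gene in a library by the same amount. The share of genes past the line on that scale was not computed, so this crossing is not particular to Sds. With 10 bins in place of 5 the 16 h value was 1.05, and ranked by Gulo to Hsd17b13 the 30 h value was 0.99.

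Finer bins showed where the level fell. With 10 bins, the first 6 ranged from 1716 to 1946 CPM in the fed library, and from 4181 to 4598 at 8 h. Later they ranged from 2313 to 2478 (16 h), 3323 to 3692 (24 h) and 8035 to 8411 (30 h). In the same order of libraries, the last bin had 979, 2873, 1118, 2213 and 3046 CPM, or 50.3%, 62.5%, 45.1%, 59.9% and 36.2% of the highest bin. Sds was thus close to flat over the first 6 bins and fell over the last few. At 80% or more of the highest bin, a line chosen after the data had been seen, were 8 of 10 bins at 0, 8, 24 and 30 h and 7 at 16 h. From bin 1 to bin 6 Hsd17b13, outside the ranking, went from 4521 to 4452 CPM at 0 h and from 3960 to 3523 at 24 h. Gulo went from 211 to 274 at 0 h and from 366 to 783 at 24 h. How well these bins separate periportal from middle barcodes was not tested.

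**Figure D3:**
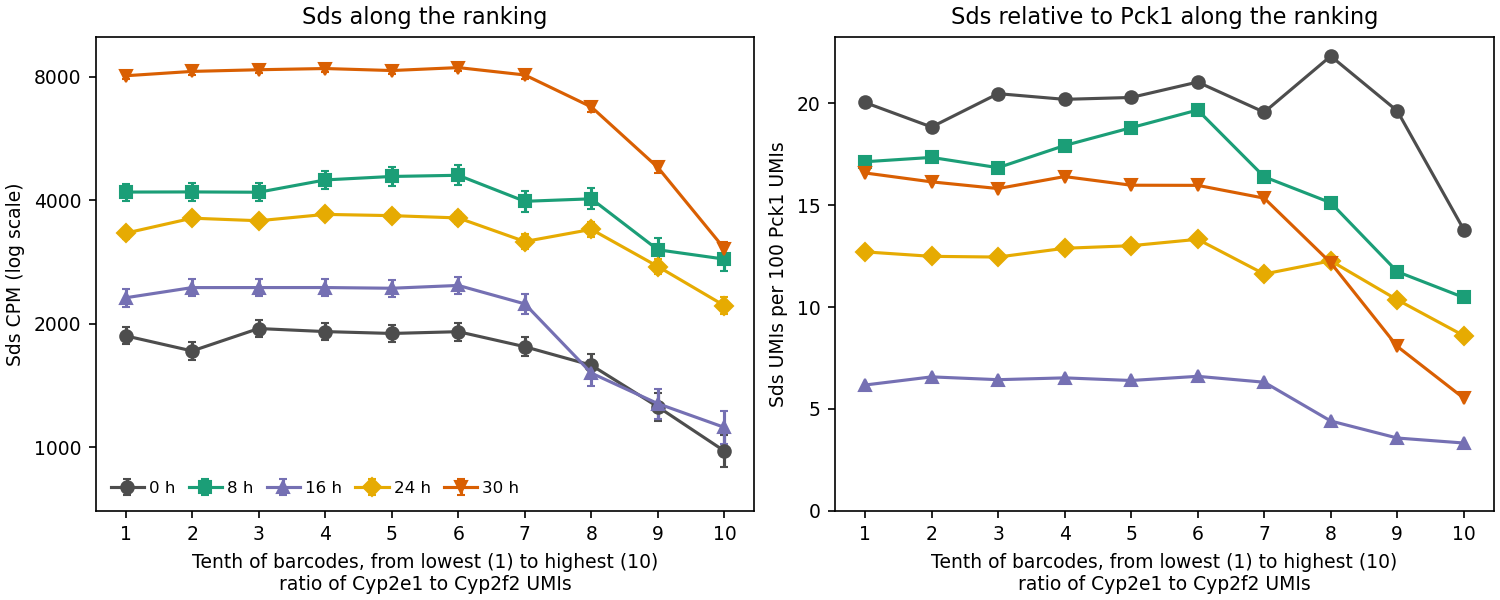
Sds level in CPM along 10 bins of barcodes ranked by Cyp2e1 to Cyp2f2, from the periportal to the pericentral end, for each library, with bars for counting intervals. Each line is near flat over the first 6 bins and falls in the last ones, to 3046 CPM at 30 h against 8035 to 8411 in its first 6.

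At 8, 24 and 30 h Sds was higher than in the fed library in every bin. The bins are equal parts of each library's own ranking, so the same bin need not be the same position along the lobule. Cyp2e1 in bin 1 stood at 421 CPM at 0 h and 4406 at 24 h. In bin 5 it stood at 70421 CPM at 0 h and 173277 at 30 h. Against the same bin of the fed library, the log2 ratios at 30 h were 2.18, 2.11, 2.13, 2.15 and 1.80 (1.70 to 1.89 in bin 5), so the ratio was smallest at the pericentral end. At 8 h they were 1.22, 1.17, 1.27, 1.25 and 1.40, and at 24 h 0.95, 0.91, 0.94, 0.96 and 1.15, with the highest value in bin 5. At 16 h they were 0.41, 0.34, 0.37, 0.18 and 0.11, and the interval in bin 5 (-0.017 to 0.23) held 0. The ratio of bin 1 to bin 5 differed from that of the fed library by 0.39 (0.28 to 0.49) at 30 h and 0.30 (0.16 to 0.44) at 16 h, and by -0.18 (-0.31 to -0.051) at 8 h and -0.20 (-0.31 to -0.086) at 24 h. Without Alb in the denominator the first 2 were 0.62 and 0.54, while 8 h was -0.042 and 24 h turned to 0.10. The smaller differences at 8 h and 24 h thus depended on the denominator.

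Per panel UMI, the ratios of Pck1 and G6pc lay nearer to 0 than that of Sds. The log2 ratio of bin 1 to bin 5 was 0.45 for both genes at 0 h, and at 30 h -0.20 for Pck1 and -0.032 for G6pc. For every 100 Pck1 UMIs the fed library had 19.5 Sds UMIs in bin 1 and 16.5 in bin 5, and the 30 h library 16.4 in bin 1 and 6.77 in bin 5. The balance of the 2 transcripts therefore differed most between the ends of the ranking at 30 h. Likeness of shape was measured over the 25 bins of the 5 libraries, with each profile centred within its library, so that changes over time take no part. Among 43 genes, with a median difference of 0.58, the profiles nearest to Sds were those of Cyp39a1, an oxysterol 7-alpha-hydroxylase, at 0.14, Alb at 0.15 and Hsd17b13 at 0.25. Pck1 was at 0.31 and G6pc at 0.32.

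Coupling within a library was measured as Pearson's r of log2(1 + UMIs) between Sds and each other gene over barcodes thinned to 200 UMIs, for 45 or 46 genes. The barcodes of a library share its preparation and a fixed total, and Sds counts are sparse, so most of these values are small and none carries a p. Pck1 and Cyp2f2 were among the 3 highest in all 5 libraries. For Pck1 r was 0.13 in the fed library and 0.17, 0.12, 0.12 and 0.13 after 8, 16, 24 and 30 h, over 7156, 6346, 8938, 8554 and 10068 barcodes. For Cyp2f2 r was 0.088, 0.11, 0.12, 0.059 and 0.21. These sizes depend on depth: thinned to 500 UMIs, which kept 3028 to 8790 barcodes, r was 0.22, 0.26, 0.20, 0.22 and 0.22 for Pck1 and 0.17, 0.20, 0.17, 0.16 and 0.38 for Cyp2f2. The other gene among the highest was Acly when fed, Actb at 8 h, Hsd17b13 at 16 h and Alb at 30 h.

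The sizes are easier to see as means. At 0 h barcodes with no Sds UMI had a mean of 1.62 Pck1 UMIs and those with 3 or more had 2.63, with 78 barcodes in the latter class. At 30 h the means were 9.91 and 11.6 Pck1 UMIs. Pck1 was higher in the class with 3 or more Sds UMIs in each library. G6pc had r of 0.049, 0.046, 0.0080, 0.014 and 0.025, and its means were 0.738 and 1.18 UMIs at 0 h but 1.51 and 1.48 at 16 h.

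At the other end, Cyp2e1 was among the 3 lowest at 0, 8, 16 and 30 h, and Gulo, a pericentral gene of vitamin C synthesis, at 8, 16, 24 and 30 h. For Cyp2e1 r was -0.076 in the fed library and -0.060, -0.13, -0.040 and -0.24 after 8, 16, 24 and 30 h. Thinned to 500 UMIs it was -0.13, -0.072, -0.15, -0.11 and -0.36. At 30 h barcodes with no Sds UMI had a mean of 14.5 Cyp2e1 UMIs and those with 3 or more had 3.78. Cyp7a1, the first enzyme of classic bile acid synthesis, was among the 3 lowest at 0, 24 and 30 h, and Scd1, a fatty acid desaturase, at 0 h and 16 h. Alb at 8 h and Igfbp2 at 24 h completed the lowest.

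Averaged within the 5 position bins, r with Cyp2f2 and Cyp2e1 lay nearer to 0 than over all barcodes in each library, and r with Pck1 differed from its value over all barcodes by little, lower at 0, 16 and 24 h and higher at 8 h and 30 h. Within bins r with Pck1 was 0.12, 0.17, 0.11, 0.11 and 0.14 at 0, 8, 16, 24 and 30 h, and it was above 0 in 25 of 25 bins, from 0.075 to 0.21. With Cyp2f2 it was 0.052, 0.064, 0.051, 0.024 and 0.062. With Cyp2e1 it was 0.0033, 0.037, 0.0081, 0.027 and -0.019. The bins are made from Cyp2e1 and Cyp2f2, so little range is left for either gene inside one. With the counting variance removed, over all barcodes, the correlation of Sds with Pck1 was 0.48, 0.47, 0.46, 0.57 and 0.30, and with G6pc 0.29, 0.23, 0.046, 0.17 and 0.18, in order of time. For Cyp2f2 it was 0.41, 0.30, 0.51, 0.29 and 0.52 over all barcodes and 0.41, 0.52, 0.46, 0.47 and 0.38 within bins. On simulated data with a correlation of 0.5, this measure gave 0.424 to 0.553 over all barcodes. Within bins it is less stable. For another panel gene it gave 1.24 at 0 h and 1.04 at 30 h, beyond what a correlation can reach. No direction is therefore read from the values within bins.

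**Figure D4:**
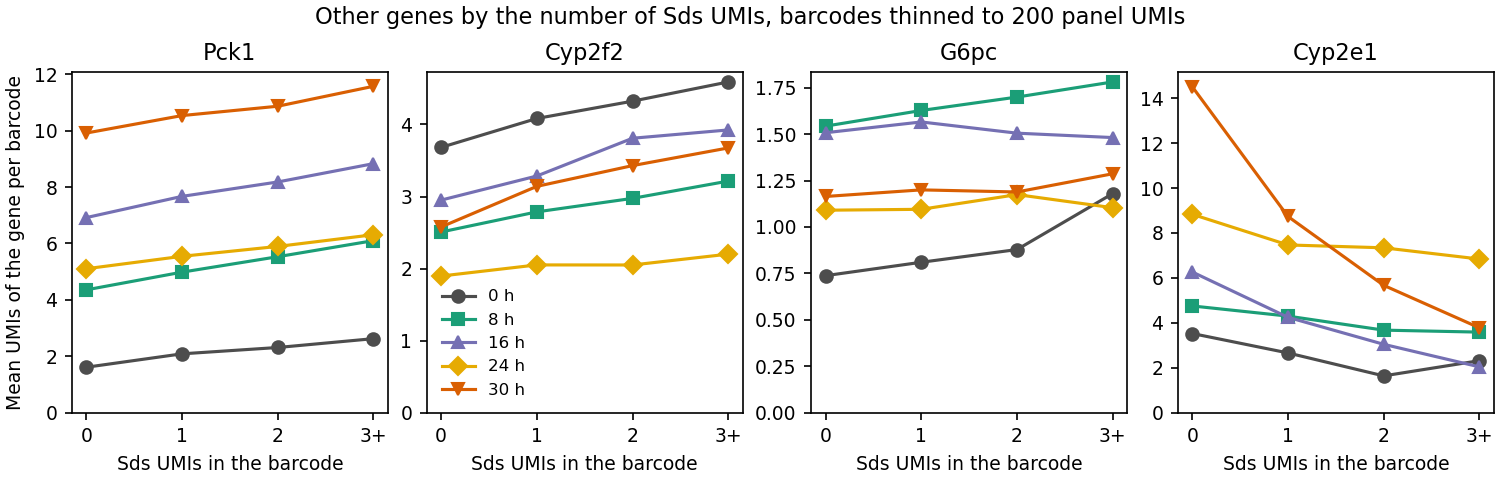
Mean UMIs per barcode of Pck1, Cyp2f2, G6pc and Cyp2e1 by the barcode's number of Sds UMIs, for each library. Barcodes were thinned to 200 panel UMIs. Between barcodes with no Sds UMI and those with 3 or more, the 30 h mean of Pck1 goes from 9.91 to 11.6. That of Cyp2e1 goes from 14.5 to 3.78.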

How the data were processed

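Raw UMI counts were deposited by the authors as 1 matrix, with a table that gives each barcode's library. Cell Ranger 6.0.1 and mm10 are named in the submitters' processing notes. The sources used here do not say how barcodes were called as cells. Libraries were 10x Genomics 3' libraries enriched for a gene panel, per the labels' protocols. All 47473 barcodes were used, and no doublet caller was run on 64 genes. Dropping the top 5% by UMIs was tried instead.

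From the deposited counts, CPM was computed per library with exact Poisson intervals, log2 ratios with exact conditional binomial intervals and shares with exact Clopper-Pearson intervals (95%). With 1 library per time point no p was computed. Genes needed 100 UMIs in each library compared, or, for couplings, a mean of 0.05 UMIs per barcode thinned to 200. A pseudocount of 1 was used in the position ratio and in the coupling logs. Gene positions came from the GRCm38 annotation. The steps were tested on simulated data. Python 3.11.15, NumPy 2.4.6, SciPy 1.17.1 and pandas 2.3.3 were used.

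Sds and the gene lists were chosen with earlier results of these data known. Named genes were Sds, panel genes of the gluconeogenic list, Cyp2e1, Cyp2f2, Alb, the 3 nearest to Sds by level and by position, and the 3 highest and 3 lowest couplings in each library. Elovl5 and Pklr are named outside that rule, after their values were seen, and 2 panel genes are not reported here by name. Alternatives were other denominators, depth limits, thinning depths, bins and ranking genes. Those chosen after seeing the data were the Pck1 and G6pc denominators, the limit of 200 UMIs for the level, and couplings with counting removed within bins.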

Additional observations from a re-analysis of the deposited data

Results flagged for a closer look

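The coupling of Sds with Alb over barcodes had opposite signs in different libraries. Pearson's r was -0.014 in the fed library and -0.082, 0.063, -0.016 and 0.13 after 8, 16, 24 and 30 h. Thinned to 500 UMIs it was 0.034 in the fed library and -0.064, 0.088, 0.021 and 0.22 after 8, 16, 24 and 30 h. The signs at 0 h and 24 h thus depended on depth. The difference between libraries was not tested. Averaged within the 5 position bins at 200 UMIs, r was below 0 in each library, at -0.11, -0.21, -0.094, -0.13 and -0.16. Alb held a mean of 136 to 144 of those 200 UMIs, and the part of this fixed total in r was not tested.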

How the results depend on the processing

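No paired analysis was possible because each time point has 1 library. In the order 8, 16, 24 and 30 h over 0 h, 16 over 8 h, 24 over 16 h and 30 over 24 h, the log2 ratios of Sds per barcode were -0.18, -0.38, 1.17, 2.20, -0.20, 1.56 and 1.03, so the first 2 reversed. Other values that moved beyond their counting interval kept their sign. Without Alb they were 1.59, 0.37 and 1.07 (8, 16 and 24 h over 0 h), 0.70 (24 over 16 h) and 1.06 (30 over 24 h). With median-of-ratios size factors they were 1.44, 0.41, 1.07, -1.03 (16 over 8 h) and 1.04 (30 over 24 h). As a mean of per-barcode CPM they were 1.89, 0.21, 0.91 and 2.05 against 0 h, then -1.68 and 0.69. With 300 or more UMIs per barcode 8 over 0 h was 1.21 and 16 over 8 h -0.89, with 200 or more 1.22 and -0.91, and without the top 5% of barcodes 24 over 0 h was 0.92 and 16 over 8 h -1.23.

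Squared coefficients of variation at 0, 8, 16, 24 and 30 h were 0.603, 0.515, 0.273, 0.288 and 0.218 after thinning to 100 UMIs, so the order of libraries at 200 UMIs was not kept. After thinning to 500 they were 0.235, 0.255, 0.139 and 0.200 at 8 to 30 h, and without Alb 0.481, 0.347, 0.555 and 0.284 at 0, 8, 16 and 30 h.

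The ratio of the periportal to the pericentral bin kept its sign in every library and alternative. At 0, 8, 16, 24 and 30 h it was 1.54, 0.95, 1.67, 1.24 and 1.78 per barcode, 1.45, 1.41, 1.99, 1.55 and 2.07 without Alb, 1.31, 1.28, 1.75, 1.20 and 1.58 without Alb, Cyp2e1 and Cyp2f2, and 0.24, 0.64, 0.88, 0.41 and 1.27 relative to Pck1. Relative to G6pc it was 0.24 and 0.84 at 0 h and 8 h. With 10 bins it was 0.93, 0.59 and 1.40 at 0, 24 and 30 h, and ranked by Gulo to Hsd17b13 0.57, 0.83 and 0.99 at 0, 16 and 30 h. With all barcodes it was 0.16 at 8 h, and with 500 or more UMIs 0.35, 0.82 and 1.02 at 8, 16 and 30 h.

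The coupling with Cyp2e1 changed sign within bins at 0, 8, 16 and 24 h (0.0033, 0.037, 0.0081 and 0.027). At 24 h it was 0.53 there with counting removed, a measure that is unstable within bins and gave no value for Cyp2e1 in the other libraries. The causes were not tested. Depth limits the 8 h library most, where 5807 barcodes fell below the thinning depth.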

Other observations

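Pklr encodes liver pyruvate kinase, which makes pyruvate from phosphoenolpyruvate, and was picked here after its values were seen. Its level was 2804 CPM in the fed library and 2773, 667, 394 and 254 after 8, 16, 24 and 30 h, while Sds, which makes pyruvate from serine, stood at 1746 CPM at 0 h and 7506 at 30 h. Pklr was thus above Sds in the fed library and below it in each fasted one. At the pericentral end of the ranking, the last of 10 bins, the Sds intervals of 8 h and 30 h overlapped, with 2873 CPM (2681 to 3075) and 3046 CPM (2931 to 3164), while in the first bin it was 4184 CPM at 8 h and 8035 at 30 h. On other scales the last bins of 8 h and 30 h differed. Sds stood at 6692 and 5581 per 1000000 UMIs without Alb, and at 1.31 and 2.63 UMIs per barcode. Cyp2e1 there was 92482 CPM at 8 h and 218002 at 30 h, so the bins need not be the same position.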
